A study of Mus musculus with 21 samples.

Results

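Npas4 and Arnt2 encode the 2 subunits of a transcription factor that neurons assemble when they become active. They were chosen by gene symbol and are 2 of the 24984 genes in a table of nascent RNA counts from mouse cortical cultures, and both are among the 16959 genes that passed the filter on low counts. Cultures from CD1 mice, on day 17 in vitro, were first held for 30 min in DMSO or in MM401 (25 µM), a peptide-like inhibitor that keeps the histone methyltransferase MLL1 from binding its cofactor WDR5. Bicuculline at 40 µM, a GABA-A receptor antagonist that raises network activity, or water as its vehicle then followed, for 1 h or for 4 h. The label, bromouridine (2 mM), was added for the final 30 min. Bromouridine is built into RNA as it is made, so the labelled RNA (BrU-seq) reads out transcription during that window rather than the pool of stable RNA.

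There were 7 groups of 3 biological replicates of mixed sex: DMSO with bicuculline for 1 h, with bicuculline for 4 h and with water for 4 h, and MM401 with bicuculline for 1 h and 4 h and with water for 1 h and 4 h. No group of DMSO with water for 1 h was analysed here, so bicuculline at 1 h in DMSO is set against water at 4 h, and time and treatment differ together in that comparison. The 20 libraries used held 49886348 to 87939384 counts each (median 62996146). Replicate 3 of MM401 with water for 4 h held 316741 counts, 0.503% of that median, and was left out, which leaves 2 libraries in its group. Markers of neurons were present in all 20 libraries (Map2 1410 to 2430 CPM, Syt1 1990 to 3100 CPM), as were those of astrocytes (Slc1a2 551 to 912 CPM), and, at lower levels, those of the oligodendrocyte lineage (Pdgfra 63.0 to 91.2 CPM, Mbp 34.4 to 56.8 CPM), microglia (Cx3cr1 10.6 to 18.4 CPM, Csf1r 5.12 to 10.1 CPM) and mural cells (Pdgfrb 4.93 to 8.71 CPM). Within these sets the endothelial marker Cldn5 was at 0 to 0.0449 CPM, Tmem119 of microglia at 0.0145 to 0.177 CPM and Mog of myelin at 0.0347 to 0.206 CPM. In such bulk cultures more RNA from each cell and more cells that transcribe a gene cannot be told apart.

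NPAS4 is a basic helix-loop-helix PAS protein made from an immediate early gene that calcium entry through synaptic activity switches on in neurons. It binds DNA only with a partner of the same family, ARNT2, which is enriched in the brain, or the more widely made ARNT. Targets of the NPAS4 dimer include Bdnf and other genes that adjust synapses, inhibitory ones among them, to activity. NPAS4 and ARNT2 have also been found in a complex with the chromatin remodeller NuA4.

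Both genes lie on the minus strand of mm10, Npas4 at chr19:4984353-4989971 (5619 bases) and Arnt2 at chr7:84246274-84410038 (163765 bases). The whole span was counted, introns included. The 250 bases before each RefSeq start site (GRCm38.p6) are shown because the pair share a dimer but differ widely in the size of their response, and the upstream sequence is where calcium-responsive motifs of such genes are looked for. The interval is chr19:4989972-4990221 for Npas4 and chr7:84410039-84410288 for Arnt2, both read 5′ to 3′ on the minus strand, with capitals marking TGACG (the half-site of the cAMP response element, on either strand) and TATAA.

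Npas4: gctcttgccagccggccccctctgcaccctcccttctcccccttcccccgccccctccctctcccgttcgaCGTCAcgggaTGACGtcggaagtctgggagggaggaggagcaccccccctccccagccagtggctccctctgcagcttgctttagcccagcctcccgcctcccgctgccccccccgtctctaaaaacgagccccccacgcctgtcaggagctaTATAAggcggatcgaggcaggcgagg
Arnt2: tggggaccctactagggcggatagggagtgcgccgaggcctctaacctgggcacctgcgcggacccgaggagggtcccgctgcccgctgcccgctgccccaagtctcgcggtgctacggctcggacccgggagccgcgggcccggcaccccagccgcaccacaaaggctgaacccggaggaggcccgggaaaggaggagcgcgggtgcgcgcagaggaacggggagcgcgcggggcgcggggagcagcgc

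The Npas4 sequence held TGACG 2 times, on opposite strands, with the first base at -179 and -169 from the start, and TATAA at -26. Of 32841 promoters of the same length, 17.8% held TGACG at least 1 time, 3.9% at least 2 times and 22.8% held TATAA. The Arnt2 sequence held neither. The full element TGACGTCA (in 1.55% of promoters), the NPAS4 dimer's core TCGTG (13.3%), the E-box CACGTG (6.02%) and the CArG box of serum response factor (1.47%) were searched on both strands and are in neither sequence. The stretch of the same length before Arnt, the gene of the other partner, held TGACGTCA 1 time, at -239, TGACG 3 times and no TATAA. Arnt rose far less than Npas4 at 1 h of bicuculline in DMSO (log2 fold change 0.17 against 4.43). A link between these motifs and the responses was not tested. GC content was 68.8% for Npas4, with 16 CG dinucleotides, and 75.6% for Arnt2, with 31, against a median of 52.4% over all promoters.

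Npas4 transcription rose steeply with bicuculline in both arms. At 1 h in DMSO its level in the 3 libraries was 663, 541 and 506 CPM (CPM, reads of the gene relative to the scaled library total; mean 570 ± 82.5, SD, n = 3). In water at 4 h it was 31.3, 23.3 and 24.7 CPM (26.4 ± 4.26, n = 3). Every bicuculline library lay far above every water library. The rise was 21.6-fold (95% interval 16.4 to 28.5; log2 fold change 4.43 ± 0.19, SE; edgeR adjusted p = 1.62e-11). A gene was called at an adjusted p under 0.05, as were 44.6% of all genes tested here, and Npas4 had the fourth largest rise of the 16959 genes.

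By 4 h of bicuculline in DMSO, Npas4 stood at 348, 265 and 242 CPM (285 ± 56.1, n = 3). The groups of 1 h and 4 h did not overlap, and neither overlapped water. The level was still 10.8-fold that in water (log2 fold change 3.43 ± 0.18; edgeR adjusted p = 1.81e-10; 49.2% of genes called). From 1 h to 4 h it fell by 1.0 on the log2 scale (SE 0.16; edgeR adjusted p = 0.000143; 34.2% of genes called).

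**Figure D1:**
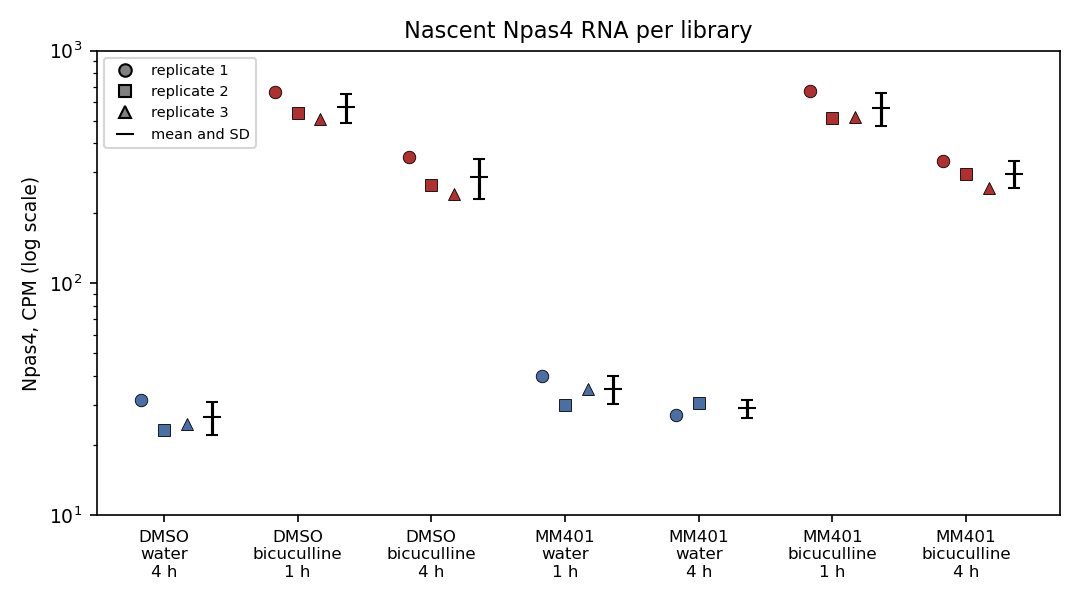
Nascent Npas4 RNA in CPM (log scale) in each of the 20 libraries, by group. Points are libraries, with shape for replicate number and colour for bicuculline (red) or water (blue), and the black mark gives mean and SD; the 12 bicuculline libraries lie between 242 and 674 CPM and the 8 water libraries between 23.3 and 39.7.

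Under MM401 the same course was seen. Npas4 was at 674, 511 and 518 CPM after 1 h of bicuculline (568 ± 92.3, n = 3) and at 39.7, 30.0 and 35.1 CPM after 1 h of water (34.9 ± 4.88, n = 3). This comparison is matched in time, and the rise in it was 16.3-fold (log2 fold change 4.02 ± 0.18; edgeR adjusted p = 4.11e-11; 39.9% of genes called). At 4 h it was at 335, 295 and 256 CPM with bicuculline (296 ± 39.5, n = 3) and at 27.1 and 30.6 CPM with water (28.9 ± 2.46, n = 2). Bicuculline libraries again lay above all water libraries, by 10.2-fold on average (log2 fold change 3.36 ± 0.21; edgeR adjusted p = 4.28e-09; 44.6% of genes called). Between 1 h and 4 h of bicuculline Npas4 fell by 0.94 on the log2 scale (SE 0.16; edgeR adjusted p = 0.000268; 33.6% of genes called). In water the change from 1 h to 4 h was -0.27 ± 0.19 on the log2 scale, with overlapping libraries, and did not pass the test (edgeR adjusted p = 0.737; 0.867% of genes called).

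The order of the 7 group means for Npas4 was thus the 3 water groups, the 2 bicuculline groups of 4 h and the 2 of 1 h. Neighbours within each of these sets overlapped and did not differ beyond their spread (edgeR adjusted p = 0.778 and 0.737 among the water groups, 0.964 between the groups of 4 h and 0.999 between those of 1 h). The step from the highest water group to the lowest bicuculline group was 3.03 ± 0.18 on the log2 scale (edgeR adjusted p = 5.67e-10). Replicate 1 was the highest of its group in 6 of the 7 groups for Npas4, and the cause was not tested.

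Counted per kilobase of gene span, Npas4 was among the most densely transcribed genes once bicuculline was present. Its mean level was 101 CPM per kb at 1 h in DMSO and also 101 under MM401, which ranked 3 of 16959 genes in each. At 4 h it was 50.7 and 52.6 CPM per kb and ranked 5 in each. In water the levels were 4.7 (DMSO, 4 h), 6.21 (MM401, 1 h) and 5.14 (MM401, 4 h) CPM per kb, with ranks of 392, 194 and 279. The part of gene length in levels and ranks per kb was not tested.

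Fos and Fosb, immediate early genes of the AP-1 factor, are set beside it as rapid genes of known response. The log2 fold changes of Fosb against water were 5.77 and 3.61 at 1 h and 4 h in DMSO and 5.57 and 3.79 under MM401. For Fos they were 2.66, 1.18, 3.04 and 1.67 in the same order, and all 8 of these values were called. From 1 h to 4 h in DMSO, Fosb fell by 2.16 and Fos by 1.48 on the log2 scale, where Npas4 fell by 1.0; the differences between genes were not tested. Per kb, Fosb at 1 h in DMSO was at 29.7 to 34.7 CPM and Fos at 68.7 to 85.8 CPM, below the 101 of Npas4.

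Arnt2 was transcribed at all times and moved little. After 1 h of bicuculline in DMSO its level was 333, 379 and 339 CPM (350 ± 24.9, n = 3). In water at 4 h it was 280, 259 and 232 CPM (257 ± 24.3, n = 3). The groups did not overlap, and Arnt2 was 1.36-fold higher with bicuculline (log2 fold change 0.45 ± 0.084; 95% interval 0.27 to 0.62; edgeR adjusted p = 0.000176). This is 1 of the 44.6% of genes called in that comparison and rests on water of another time. It was no longer called with all 21 libraries, which adds back the shallow one (0.47 ± 0.19, edgeR adjusted p = 0.0701). Scaling by plain library totals put it at 0.26 (edgeR adjusted p = 0.00299), a setting that moves the median of all genes from -0.038 to -0.23 and the split of called genes from 3396 higher and 4161 lower to 1836 and 6818.

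At 4 h of bicuculline in DMSO, Arnt2 was at 249, 314 and 298 CPM (287 ± 34.1, n = 3), a range that overlaps that of water. The difference from water was 0.16 ± 0.084 on the log2 scale and did not pass the test (edgeR adjusted p = 0.12); it passed without bicuculline 4 h replicate 1 (0.25, edgeR adjusted p = 0.0173) or without water replicate 1 (0.23, edgeR adjusted p = 0.0349), and turned to -0.11 with plain library totals. Arnt2 fell from 1 h to 4 h by 0.29 on the log2 scale with no overlap (SE 0.084; edgeR adjusted p = 0.0103). That fall was no longer called without bicuculline 1 h replicate 2 (-0.23, edgeR adjusted p = 0.0677) or without bicuculline 4 h replicate 1 (-0.19, edgeR adjusted p = 0.0914), nor with all 21 libraries (-0.33, edgeR adjusted p = 0.248).

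Under MM401, Arnt2 was at 365, 363 and 328 CPM after 1 h of bicuculline (352 ± 20.7, n = 3) and at 326, 330 and 300 CPM after 1 h of water (319 ± 16.3, n = 3). The libraries overlapped by a single value, and the difference of 0.14 ± 0.084 did not pass the test (edgeR adjusted p = 0.187; -0.072 with plain library totals). At 4 h it was at 280, 303 and 275 CPM with bicuculline (286 ± 15.4, n = 3) and 300 and 315 CPM with water (308 ± 11.1, n = 2). These overlapped as well, at -0.1 ± 0.094 on the log2 scale (edgeR adjusted p = 0.383). From 1 h to 4 h of bicuculline Arnt2 fell by 0.3 with no overlap (SE 0.084; edgeR adjusted p = 0.00811), a call lost with all 21 libraries (-0.32, edgeR adjusted p = 0.26), and in water it changed by -0.051 ± 0.094 (edgeR adjusted p = 0.945).

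The order of the Arnt2 means ran from DMSO with water at 4 h through bicuculline at 4 h (MM401, then DMSO), MM401 with water at 4 h and at 1 h, to bicuculline at 1 h (DMSO, then MM401). No neighbouring pair in this order passed the test (edgeR adjusted p from 0.141 to 0.999), although MM401 with water at 1 h did not overlap DMSO with bicuculline at 1 h. Across wider steps, DMSO with water lay below MM401 with water at 1 h by 0.31 ± 0.084 on the log2 scale (edgeR adjusted p = 0.0277). Its density was 1.57 to 2.15 CPM per kb, which ranked 2075 to 3375 of 16959. Replicate 2 was the highest of its group in 5 of 7 groups.

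**Figure D2:**
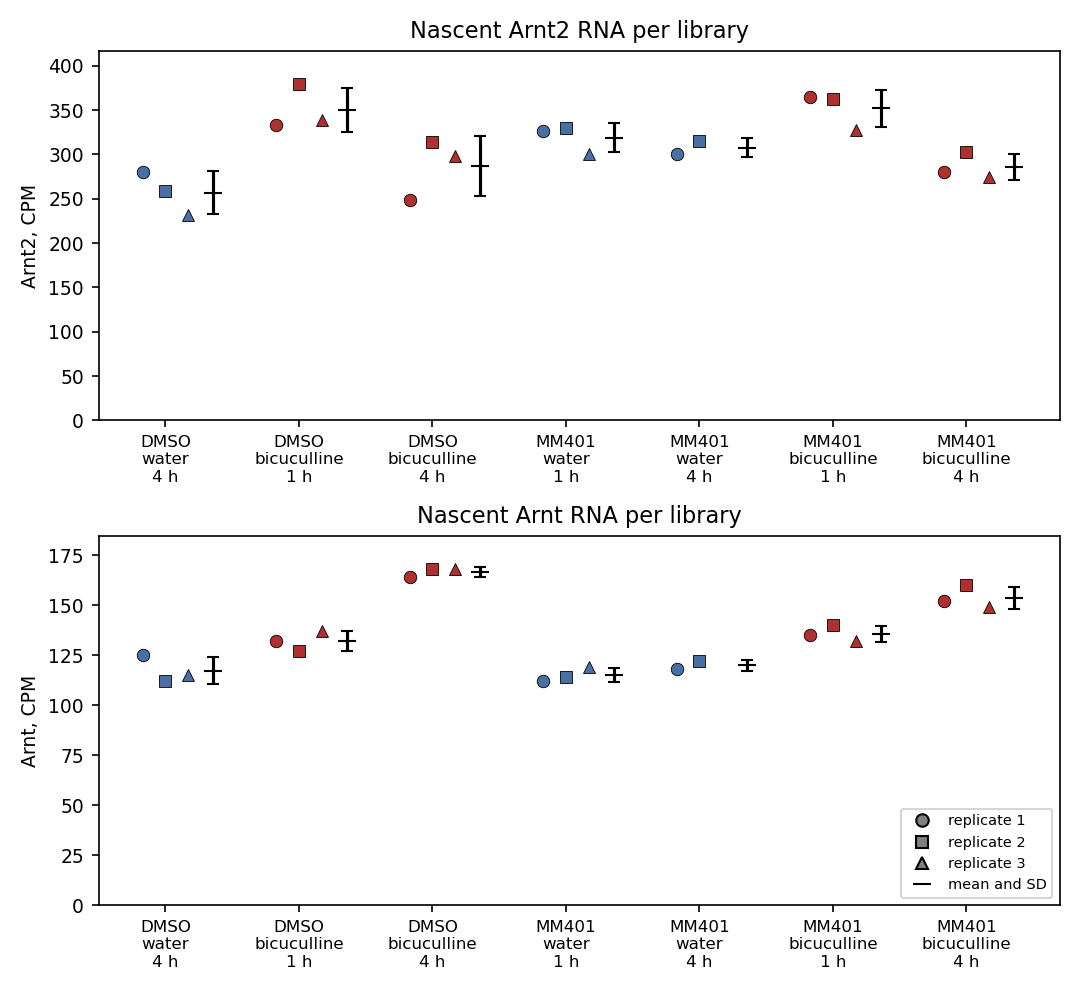
Nascent Arnt2 (top) and Arnt (bottom) RNA in CPM, from 0, in each of the 20 libraries by group, with the mean and SD in black. Arnt2 spans 232 to 379 CPM and is highest in the groups of bicuculline at 1 h, while Arnt spans 112 to 168 CPM and is highest in those of bicuculline at 4 h.

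Arnt, the other partner that NPAS4 can use, followed another course. In DMSO it was at 132, 127 and 137 CPM after 1 h of bicuculline, 164, 168 and 168 CPM after 4 h and 125, 112 and 115 CPM in water. The group of 4 h stood apart from both others. Against water, Arnt rose by 0.17 ± 0.052 on the log2 scale at 1 h (edgeR adjusted p = 0.0116; -0.019 with plain library totals) and by 0.51 ± 0.052 at 4 h (edgeR adjusted p = 5.03e-08; 0.24 with plain library totals). The call at 1 h was also lost with all 21 libraries and with only the groups compared (0.19 and 0.2, edgeR adjusted p = 0.0646 and 0.0689). Under MM401 it rose by 0.24 ± 0.052 at 1 h (edgeR adjusted p = 0.000779; not called with plain library totals, 0.028, edgeR adjusted p = 0.679) and by 0.35 ± 0.059 at 4 h (edgeR adjusted p = 5.29e-05). From 1 h to 4 h of bicuculline, where Arnt2 fell, Arnt rose by 0.34 ± 0.052 in DMSO (edgeR adjusted p = 2.4e-05) and by 0.18 ± 0.052 under MM401 (edgeR adjusted p = 0.0102). The latter call was lost with all 21 libraries (0.15), with only the groups compared (0.16), without replicate 3 of bicuculline for 1 h (0.13, edgeR adjusted p = 0.109) and without replicate 2 of bicuculline for 4 h (0.15, edgeR adjusted p = 0.0568).

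A ratio of 2 genes in 1 library does not depend on how libraries are scaled. The ratio of Arnt2 to Arnt, each per kb, was 0.968, 1.15 and 0.95 after 1 h of bicuculline in DMSO, 0.584, 0.716 and 0.68 after 4 h and 0.859, 0.886 and 0.776 in water. None of these 3 groups overlapped another. Under MM401 it was 0.957 to 1.03 after 1 h and 0.706 to 0.73 after 4 h of bicuculline, and 0.971 to 1.12 in the 5 water libraries, so that only the group of 4 h of bicuculline stood apart. The fall from 1 h to 4 h of bicuculline was to 0.646 of the earlier ratio in DMSO and 0.718 under MM401. The exact two-sided permutation test gave p = 0.1 for both, the smallest that 3 against 3 allows (0.25 after Benjamini-Hochberg over 10 comparisons), so this test cannot reach 0.05 here.

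The ratio of Npas4 to Arnt2 per kb sets nascent RNA of the inducible subunit beside that of its partner. In water it was 3.25, 2.62 and 3.1 in DMSO and 2.64 to 3.55 in the 5 MM401 libraries. After 1 h of bicuculline it was 58.0, 41.6 and 43.5 in DMSO and 53.9, 41.0 and 46.0 under MM401. After 4 h it was 40.8, 24.5 and 23.6 in DMSO and 34.9, 28.3 and 27.2 under MM401. Bicuculline and water did not overlap at either time, nor did 1 h and 4 h of bicuculline within an arm. These are ratios of RNA made in the labelling window and give no ratio of the proteins. The spans counted were 5619 bases for Npas4 and 163765 for Arnt2, and the part of gene length in the ratio was not tested.

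**Figure D3:**
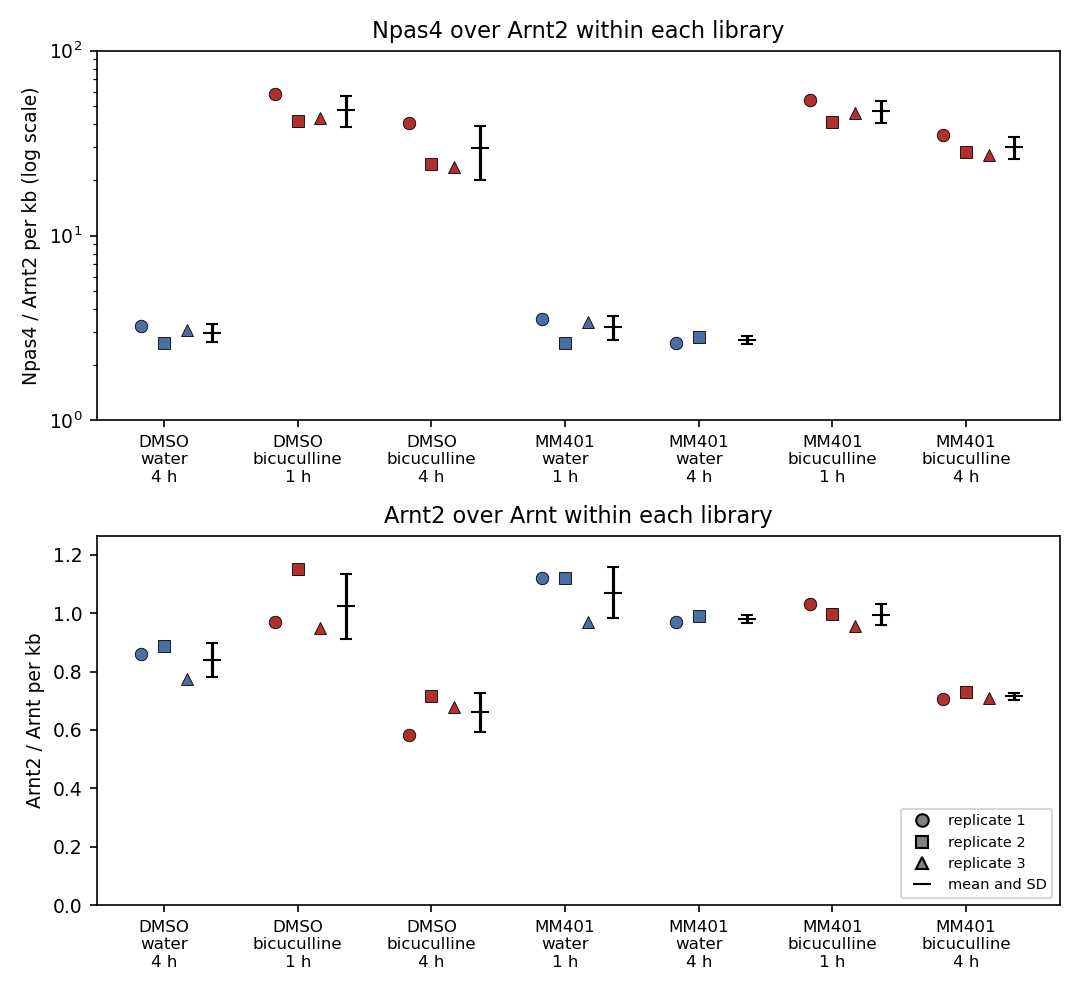
Ratio of Npas4 to Arnt2 (top, log scale) and of Arnt2 to Arnt (bottom, from 0) within each of the 20 libraries, each gene in CPM per kb of its span, with mean and SD in black. The upper ratio is 2.62 to 3.55 in water and 23.6 to 58.0 with bicuculline; the lower one is 0.584 to 0.73 at 4 h of bicuculline and 0.776 to 1.15 in the other groups.

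Whether blocking MLL1 and WDR5 alters the response was asked by setting MM401 against DMSO at the same stimulus and time. Npas4 differed by -0.0046 ± 0.16 on the log2 scale at 1 h of bicuculline (95% interval -0.35 to 0.34; edgeR adjusted p = 0.999; 0.0059% of genes called). At 4 h of bicuculline it differed by 0.053 ± 0.16 (-0.29 to 0.4; edgeR adjusted p = 0.964; 0.0% called) and in water at 4 h by 0.13 ± 0.19 (-0.27 to 0.53; edgeR adjusted p = 0.778; 0.0826% called). The libraries of the arms overlapped in all 3. These intervals do not show that the arms are alike.

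For Arnt2 the difference was 0.007 ± 0.084 at 1 h of bicuculline (-0.17 to 0.18; edgeR adjusted p = 0.999) and -0.0056 ± 0.084 at 4 h (-0.18 to 0.17; edgeR adjusted p = 0.995). In water at 4 h the arms did not overlap: Arnt2 was at 300 and 315 CPM with MM401 and at 280, 259 and 232 CPM with DMSO. That difference was 0.26 ± 0.093 (0.066 to 0.45) and missed the threshold over all genes (edgeR adjusted p = 0.257). It passed without DMSO water replicate 1 (0.33, edgeR adjusted p = 0.0386). In the same comparison the summed astrocyte markers ranged from 1080 to 1190 CPM with MM401 and from 1110 to 1580 CPM with DMSO, and their part in the Arnt2 difference was not tested.

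The difference between the responses of the arms was tested as an interaction, with water at 4 h as the base in each arm. For Npas4 it was -0.14 ± 0.25 at 1 h (-0.67 to 0.39; edgeR adjusted p = 0.916) and -0.079 ± 0.25 at 4 h (-0.61 to 0.45; edgeR adjusted p = 0.903). For Arnt2 it was -0.25 ± 0.13 at 1 h (-0.51 to 0.0079; edgeR adjusted p = 0.645) and -0.27 ± 0.13 at 4 h (-0.53 to -0.0046; edgeR adjusted p = 0.326), and with plain library totals the latter was -0.072 (edgeR adjusted p = 0.651). The Arnt2 rise that was called in DMSO and not under MM401 is therefore not shown to differ between the arms. No gene was called in either interaction by edgeR (0.0% at 1 h and 0.0% at 4 h; 1326 and 2552 genes at an unadjusted p under 0.05), and DESeq2 called 5 and 473, neither member among them.

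**Figure D4:**
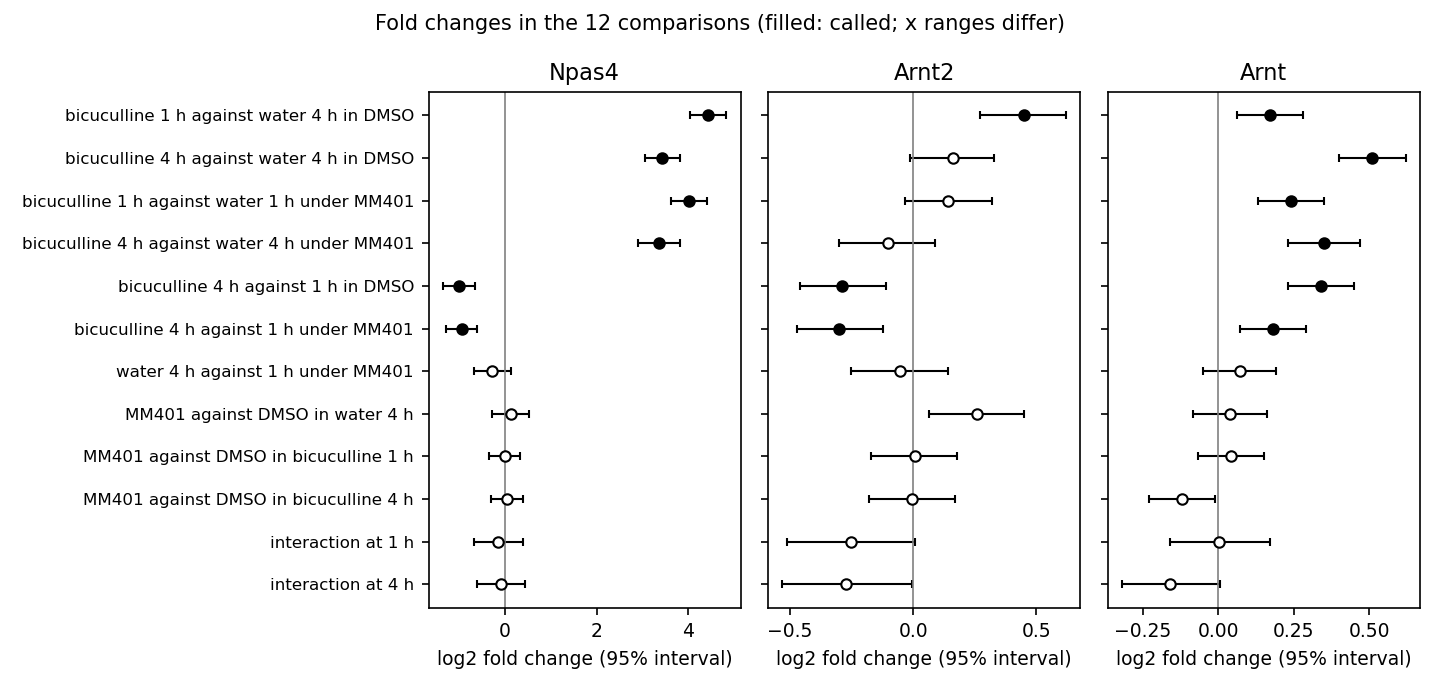
Log2 fold change with its 95% interval for Npas4, Arnt2 and Arnt in the 12 comparisons; filled points were called and open points were not, and the x ranges differ between panels. Npas4 is called in the 6 comparisons of bicuculline with water or of its 2 times, Arnt2 in 3 of these and Arnt in all 6, and no point is called between MM401 and DMSO or in an interaction.

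Genes next to Npas4 did not rise with it. The 4 tested genes within 50 kb were Peli3, Mrpl11, Slc29a2 and B4gat1, none of which overlaps its span. Peli3, an E3 ubiquitin ligase, fell in all 4 comparisons with water (-0.37 and -0.69 at 1 h and 4 h in DMSO, -0.51 and -0.62 under MM401). Mrpl11, a mitochondrial ribosomal protein, fell at 4 h (-0.69 in DMSO, -0.49 under MM401), and the nucleoside transporter Slc29a2 fell at 4 h in DMSO (-0.46). Peli3 at 1 h in DMSO was no longer called with all 21 libraries (-0.35) or without bicuculline replicate 3, water replicate 2 or water replicate 3 (-0.31, -0.31 and -0.33; edgeR adjusted p up to 0.0804). Mrpl11 under MM401 was not called without bicuculline 4 h replicate 1 or water 4 h replicate 1 (-0.45 and -0.37), nor Slc29a2 without bicuculline 4 h replicate 2 or water replicate 3 (-0.38 and -0.42). B4gat1, a glycosyltransferase, ranged from -0.29 to 0.24 and was called in none of them. Arnt2 has no neighbour within 50 kb in the table.

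The genes whose pattern over the 7 group means was most like that of Npas4 were Klf4, Nts, Atf3, Nr4a3 and Ifrd1. Likeness is the root mean square difference between profiles of mean log2 CPM, each centred on its own mean, and is a description without a test. Unnamed predicted genes, genes of microRNAs and small nucleolar RNAs, mitochondrial genome genes and ribosomal protein pseudogenes were left out of the ranking. The difference was 0.333 for Klf4, a zinc finger factor, 0.395 for Nts, the precursor of neurotensin, 0.417 for Atf3, a stress- and activity-induced bZIP factor, 0.513 for Nr4a3, an orphan nuclear receptor, and 0.576 for Ifrd1, against a median of 1.91 over 11846 genes. Fosb came eighth at 0.64, and Fos stood at rank 17 with 0.811. In DMSO with water, Klf4 and Nts were at low means of 0.648 and 0.784 CPM. The log2 fold changes of Nr4a3 against water were 3.53 and 2.16 at 1 h and 4 h in DMSO, and those of Nts 4.26 and 4.22. Such rises were fixed by the choice of these genes for likeness to Npas4 over the same group means. From 1 h to 4 h in DMSO, Klf4, Atf3 and Nr4a3 changed by -0.71, -0.29 and -1.36, and Npas4 by -1.0. Nts and Ifrd1 were not called there (-0.04 and -0.017).

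For Arnt2 the nearest profiles were those of Pllp (0.0314), Uap1 (0.0381), Spock2 (0.0424), Prkag2 (0.0455) and Ankfn1 (0.0477). As many as 286 genes lay within 0.1 of Arnt2, and the median over all genes was 0.246. The small range of Arnt2 puts many genes near it. At 1 h in DMSO their log2 differences from water were 0.42, 0.51, 0.37, 0.39 and 0.29 in that order, a direction fixed by their choice for likeness to Arnt2 over the same group means.

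Gene lists around the pair are given with the shares of all genes called higher and lower, which were 20% and 24.5% at 1 h and 23.7% and 25.5% at 4 h in DMSO, and 18.1% and 21.8% at 1 h and 23.0% and 21.7% at 4 h under MM401. With plain library totals the split became 1820 higher and 7867 lower at 4 h in DMSO, where it had been 4014 and 4330. It became 1276 and 6541 at 1 h under MM401 (3070 and 3699 before) and 2794 and 4138 at 4 h (3898 and 3674 before), and the medians of all genes became -0.3, -0.21 and -0.059. Directions in the lists are therefore relative to the TMM scaling.

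Of the wider bHLH-PAS family, 19 of 20 other genes were tested. In DMSO, 5 rose and 3 fell at 1 h (42.1% called, 44.6% over all genes) and 11 rose and 2 fell at 4 h (68.4%, 49.2% over all genes). Under MM401, 7 rose and 2 fell at 1 h and 9 rose and 3 fell at 4 h. The family's medians were 0.17, 0.23, 0.14 and 0.31 in these comparisons, where those of all genes were -0.038, -0.024, -0.0018 and 0.016; with plain library totals they were -0.019, -0.042, -0.077 and 0.23, with 2 rising and 6 falling at 1 h and 5 and 3 at 4 h in DMSO, and 2 and 5 at 1 h and 9 and 4 at 4 h under MM401. Per1, a repressor of the circadian clock, rose by 1.69 and 0.93 at 1 h and 4 h in DMSO and by 1.7 and 1.06 under MM401. Sim1, a neuronal factor that also pairs with ARNT2, rose at 4 h by 1.82 in DMSO and 1.67 under MM401 from a low level (0.645 ± 0.0808 to 2.27 ± 0.349 CPM in DMSO). The value under MM401 was 2.48 without replicate 1 and 1.11 without replicate 2 of its water group at 4 h, each of which leaves 1 library there, assumed to vary like the other groups. Arntl2, a clock partner, fell at 4 h by 0.97 and 1.23. Ahrr, the repressor of the aryl hydrocarbon receptor, was the one family member called between MM401 and DMSO and was singled out after its values were seen: it was higher with MM401 by 1.07 ± 0.14 at 1 h of bicuculline (edgeR adjusted p = 0.00302) and by 0.87 ± 0.16 in water (edgeR adjusted p = 0.0349). The call at 1 h was lost with only the groups compared (1.05, edgeR adjusted p = 0.104), without DMSO replicate 2 (1.02, edgeR adjusted p = 0.0727) and without MM401 replicate 3 (0.91, edgeR adjusted p = 0.0583) of that time. The call in water was lost with all 21 libraries, only the groups compared and plain library totals (0.85, 0.88 and 0.78) and in 9 of 20 fits that left out 1 library (0.75 to 1.0). Those were the fits without replicates 2 or 3 of DMSO water, either MM401 water library at 4 h, any MM401 library of bicuculline for 4 h, DMSO replicate 1 of bicuculline for 1 h or replicate 3 of MM401 water at 1 h.

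Subunits of the NuA4 complex that joins NPAS4 and ARNT2 moved in both directions. Of 20 genes, 6 rose and 10 fell at 1 h and 5 rose and 9 fell at 4 h in DMSO (80.0% and 70.0% called), and 6 rose and 8 fell and 4 rose and 9 fell under MM401. Medians were -0.17, -0.14, -0.1 and -0.19, and below 0 with plain library totals too (-0.36, -0.41, -0.31 and -0.26). Etl4, the subunit found with neuronal NPAS4, rose by 0.54 ± 0.14 at 1 h in DMSO, and its 0.24 ± 0.14 at 1 h under MM401 and -0.12 ± 0.14 at 4 h in DMSO did not pass the test. Under MM401 Etl4 fell by 0.64 ± 0.16 at 4 h, and from 1 h to 4 h of bicuculline it fell by 0.66 ± 0.14 in DMSO and by 0.91 ± 0.14 under MM401. The scaffold gene Epc1 rose by 0.63 at 4 h in both arms, and the chromodomain gene Morf4l1 rose by 0.42 and 0.37 in DMSO. Actl6b, the neuronal actin-like subunit, fell by 0.79 and 0.88 at 1 h and 4 h in DMSO and by 0.82 at 4 h under MM401.

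Genes of the calcium pathway that switches Npas4 on were mostly lower by 4 h. Of 18, 6 rose and 11 fell at 4 h in DMSO (94.4% called, 49.2% over all genes) and 2 rose and 10 fell under MM401; at 1 h the counts were 4 and 6 in DMSO and 5 and 6 under MM401. With plain library totals 1 rose and 12 fell at 4 h in DMSO. The L-type channel gene Cacna1d fell at 4 h by 0.53 and 0.89, and Crtc1, a coactivator of CREB, fell by 0.53 at 4 h in DMSO. Srf, which binds CArG boxes, rose at 1 h by 0.8 in DMSO and 1.04 under MM401 and fell below water at 4 h by 0.42 and 0.35. Mef2c, an activity-dependent MADS factor, rose in all 4 comparisons by 0.55 to 0.75, calls that were lost with all 21 libraries.

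Genes reported elsewhere as NPAS4 targets were mostly higher. Of 16, 12 rose and 1 fell at 1 h and 15 rose and 1 fell at 4 h in DMSO (81.2% called at 1 h and each of the 16 at 4 h), 12 rose and 1 fell at 1 h and 13 rose at 4 h under MM401. Medians were 1.42, 1.41, 1.22 and 1.51, and 1.22, 1.13, 1.01 and 1.43 with plain library totals. Bdnf, a neurotrophin, rose at 4 h from 221 ± 23.9 to 1400 ± 32.3 CPM in DMSO (log2 fold change 2.66 ± 0.11) and by 2.45 under MM401. Nr4a1, a nuclear receptor, and Ptgs2, a prostaglandin synthase, each rose by 3.09 at 1 h in DMSO, and by 2.95 and 2.81 under MM401. Pim1, a kinase, rose by 2.28 and 2.73 at 4 h, and Kcna1, a potassium channel, fell at 1 h (by 0.37 in DMSO, by 0.35 under MM401) but rose at 4 h (0.27 and 0.45). The list was written with results of these data known, and the design does not separate effects of NPAS4 from others of bicuculline.

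**Figure D5:**
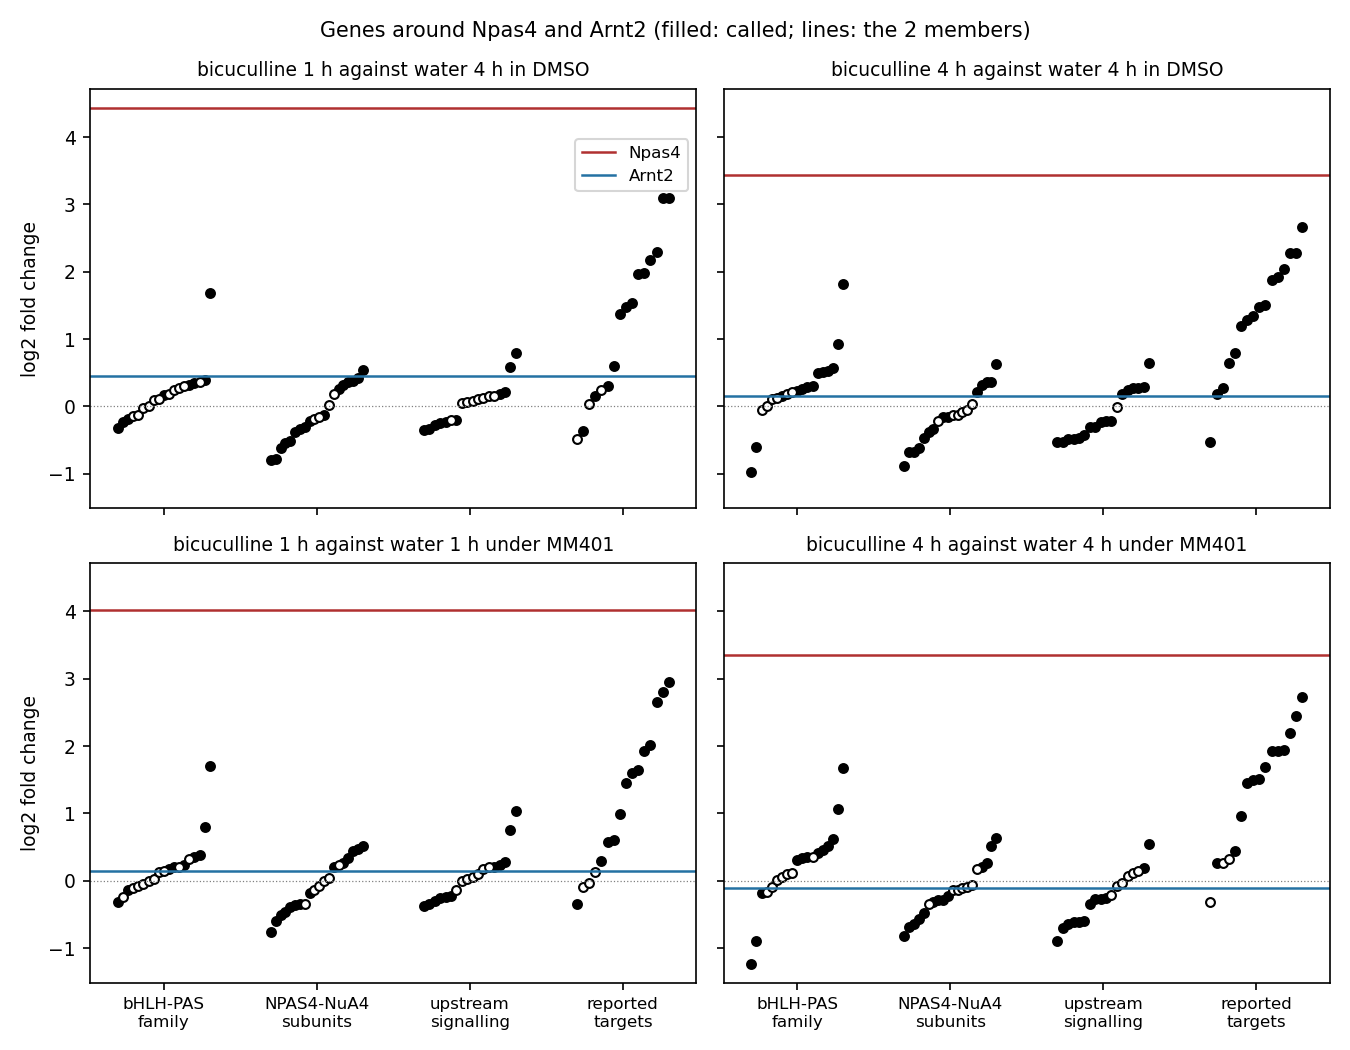
Log2 fold changes of the genes in the 4 lists in the 4 comparisons of bicuculline with water, 1 point a gene, filled where called; lines give Npas4 (red) and Arnt2 (blue). The reported targets reach 3.09 and lie mostly above the Arnt2 line, no listed gene reaches the Npas4 line, and the other lists spread to both sides of 0.

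Summed markers of several cell types also differed in level between bicuculline and water, beside Npas4, Arnt2 and the gene groups above. The markers of inhibitory neurons (6 genes) were at 516 to 592 CPM after 1 h and 656 to 699 CPM after 4 h in DMSO, and at 337 to 367 CPM in water, and those of excitatory neurons (6 genes) were at 855 to 930, 1090 to 1170 and 659 to 831 CPM. The oligodendrocyte lineage (6 genes) was at 156 to 169, 168 to 180 and 134 to 150 CPM in the same groups, and endothelial and mural cells (6 genes) at a mean of 11.8 CPM after 1 h, at 11.5 to 12.8 CPM after 4 h and at 9.21 to 10.2 CPM in water. In these 4 sets both bicuculline groups lay above water with no overlap in DMSO. Under MM401 the endothelial and mural set overlapped water at 1 h (11.3 CPM and above with bicuculline, 8.41 to 11.5 CPM in water). Markers shared by all neurons (5 genes) overlapped water at 1 h in DMSO (5530 to 5920 against 4520 to 5670 CPM) and lay above it at 4 h (6690 to 7190 CPM); under MM401 they lay above water at 1 h (5350 to 6380 against 4570 to 4840 CPM) and at 4 h (6050 to 6620 against 5340 to 5480 CPM). Microglial markers (6 genes) were at 23.4 to 30.4, 31.1 to 36.8 and 26.1 to 30.2 CPM, above water without overlap at 4 h and overlapping it at 1 h. Astrocyte markers (6 genes) overlapped water in DMSO (1510 to 1650, 1310 to 1440 and 1110 to 1580 CPM) but not under MM401, where they were at 1560 to 1630 CPM against 1070 to 1330 CPM in water at 1 h and at 1300 to 1370 CPM against 1080 to 1190 CPM at 4 h. The part of these marker differences in the results for Npas4, Arnt2 and the lists was not tested.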

How the data were processed

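Nascent RNA (BrU-seq) was measured in 21 libraries. The deposited values were whole-number read counts per gene span, as written by featureCounts per the file headers, with the gene length in bases, another deposited column; mm10, Bowtie2 and UMI-tools are named in the submitters' processing notes without roles. Strand use and handling of duplicates are not given in the sources used here. Genes were kept by edgeR's filterByExpr (minimum count 10, total 15), scaled by TMM and fitted over 7 groups and 20 libraries with edgeR 4.0.16's quasi-likelihood test (R 4.3.3), two-sided, Benjamini-Hochberg adjusted over 16959 genes and called under 0.05. SE was taken as the fold change over the root of F. CPM use TMM-scaled totals. P-values test differences between group means against the spread between replicates, estimated over the 7 groups together and moderated across genes. Counts are of reads, so precision beyond counting error comes from replicates. Replicates were compared by chi-square (6.14 to 78.5 per degree of freedom over 19 pairs): none agreed within sampling noise.

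From each list up to 2 called genes per direction were named, with a mean of 2 CPM or more in the group with the higher level and no overlap; Arnt, Fos, Fosb, tested neighbours within 50 kb and the 5 nearest profiles (prior count 2, mean of at least 2 CPM) were also named. A further list is not reported here. The members and lists were chosen with earlier results of these data known. On simulated counts for 16959 genes in the comparison of bicuculline at 1 h with water in DMSO, 50 of 50 genes changed by 1 and 50 of 50 changed by 2 on the log2 scale were recovered in each direction, with 10 false calls. Same-numbered replicates deviated together (every correlation over 0.1) for bicuculline 4 h against 1 h under MM401 (0.125 to 0.278) and for MM401 against DMSO at 4 h of bicuculline (0.238 to 0.302); the labels give no shared source. Alternatives were DESeq2 1.42.0, RLE scaling, plain library totals, no filter, only the groups compared, all 21 libraries, replicate number as a block and each of 20 libraries left out.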

Additional observations from a re-analysis of the deposited data

How the results depend on the processing

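The Npas4 responses to bicuculline and its fall from 1 h to 4 h kept their direction and call under DESeq2, RLE scaling, plain library totals, no filter, only the groups compared, all 21 libraries, the replicate block and each library left out; the log2 fold change at 1 h in DMSO ranged from 4.31 to 4.57 over the libraries left out. With the replicate block, which changed no call of Npas4 or Arnt2, it was 4.43 and that of Arnt2 0.45; the block raised genes called between MM401 and DMSO at 1 h of bicuculline from 1 to 4.

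With all 21 libraries Arnt2 was no longer called at 1 h in DMSO (0.47, edgeR adjusted p = 0.0701) or from 1 h to 4 h in DMSO (-0.33) and under MM401 (-0.32), and its sign turned against water at 4 h under MM401 (0.091) and between the arms at 1 h of bicuculline (-0.0086). Plain library totals turned the sign of uncalled Arnt2 differences at 4 h in DMSO (-0.11), at 1 h under MM401 (-0.072) and between the arms at 1 h (-0.047) and 4 h (0.1) of bicuculline, of the Npas4 interaction at 4 h (0.11), of Arnt at 1 h in DMSO (-0.019) and of B4gat1 at 1 h under MM401 (-0.13). With only the groups compared the Arnt2 difference between the arms was -0.0049 and 0.019 at 1 h and 4 h. The causes were not tested.

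Leaving out 1 library moved Npas4 between the arms over -0.15 to 0.12 at 1 h of bicuculline, -0.052 to 0.22 at 4 h of bicuculline and 0.053 to 0.27 in water, and its interaction over -0.28 to -0.014 at 1 h and -0.22 to 0.091 at 4 h; Arnt2 ranged over 0.063 to 0.25 (4 h, DMSO), -0.36 to -0.19 (4 h against 1 h, DMSO), 0.19 to 0.33 (arms, water), -0.029 to 0.067 (arms, 1 h) and -0.1 to 0.064 (arms, 4 h), and B4gat1 at 1 h under MM401 ranged over -0.049 to 0.18. Of 693 values for the other named genes under the 7 alternatives that kept all groups whole, 647 kept direction and call, 42 lost the call, 2 gained it and 2 turned; Mef2c lost its calls with all 21 libraries. Genes called fell with all 21 libraries from 5805 to 3745 (4 h against 1 h, DMSO), 5691 to 3646 (MM401), 147 to 19 (water times) and 14 to 0 (arms in water); DESeq2 called 267, 166 and 13 (arms, 1 h), only the groups compared 328 and 0, and plain totals 4. One library left out gave 0 to 1272 genes between the arms in water, 14 to 280 between water times, 0 to 4 (arms, 1 h), 0 to 97 and 0 to 1551 (interactions).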

Other observations

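The library left out, replicate 3 of MM401 with water for 4 h, held 0 Npas4 counts, where the mean share of the other 2 libraries of its group would give 9.5 at its depth. At that depth 3 counts would be 9.47 CPM, so 0 counts do not exclude a level up to about that. The same library held 36 Arnt2 counts (114 CPM), where 101 would be expected, and 32 Arnt counts.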
